A study of Mus musculus with 22 samples.

Results

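The Meis, Pbx, COUP-TF and Zfhx transcription factors were followed through 22 single mouse retinal cells. The 9 genes were Meis1, Meis2, Meis3, Pbx2, Pbx3, Nr2f1, Nr2f2, Zfhx3 and Zfhx4, named by gene family, out of 18193 genes with a probe set of their own on the Affymetrix mouse expression array used. Each cell was picked by hand from a papain-dissociated retina, and its mRNA was reverse transcribed and amplified by PCR before hybridisation. The cells were 3 photoreceptors (1 adult rod and 2 P0 cells), 13 ganglion cells (3 cells at E12.5, 1 cell at E13.5, 2 cells at E14.5, 3 cells at E15.5 and 4 cells at P0) and 6 amacrine cells (1 of E16.5 and 5 of P0). No treatment or mutation was recorded for any group, and the CD1 strain is named for 9 of the 22 cells. Cell type was assigned by the authors after profiling, and no animal or litter is named. Cells of one type and stage were therefore averaged into 1 sample. The p-values rest on the spread between such samples, taken from a trend over all genes tested and not from each gene alone.

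Meis and Pbx proteins are homeodomain factors of the TALE class, which bind DNA together as partners. Meis factors act in retinal progenitors and in the control of Pax6. Nr2f1 and Nr2f2, also called COUP-TFI and COUP-TFII, are orphan nuclear receptors that pattern the optic vesicle and the dorsal and ventral retina. Zfhx3 and Zfhx4 are very large proteins with many zinc fingers and several homeodomains, known from differentiating neurons.

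Values are log2 signals, and each gene is given by its probe set of highest mean unless another is named. Signals below 200 were raised to it, so that 7.64 on the log2 scale is a floor, and a gene is called detected in a cell at a signal of 1000 (log2 9.97) or more. Between 1517 genes, in ganglion cell C7 of E15.5, and 4351 genes, in ganglion cell F1 of P0, were detected per cell. Photoreceptor and ganglion cell markers went with the labels. Photoreceptors held 9 to 10 of 10 photoreceptor markers, ganglion cells 0 to 2 and amacrine cells 0. Ganglion cells held 7 to 11 of 11 ganglion cell markers and amacrine cells 0 to 4. Of 13 amacrine markers, photoreceptors held 2 to 5, ganglion cells 1 to 2 and amacrine cells 4 to 8. This list did not part all cells, since the adult rod held 5 and amacrine cell D1 of P0 held 4. Whether the authors named the cells by the same markers is not stated, so this is no independent check. The adult rod and the E16.5 amacrine cell J6 stood apart, with 55.0% and 57.9% of genes above the floor against at most 37.2% in any other cell. Each of them is the only cell of its stage, so the differences that they move most are given without them too.

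A few members were common and most were sparse. Meis3 was detected in 14 of the 22 cells, Meis1 in 13, Nr2f1 in 11, Meis2 and Pbx3 in 8 each, Nr2f2 and Zfhx3 in 7 each, Zfhx4 in 6 and Pbx2 in 5. The median of 8 cells per member lay close to the median of 7 cells over the 7183 genes detected in at least 3 cells. All 9 members passed that filter and were tested. In the probe sets used, no member was at or above the detection signal in every cell of any of the 3 types.

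**Figure D1:**
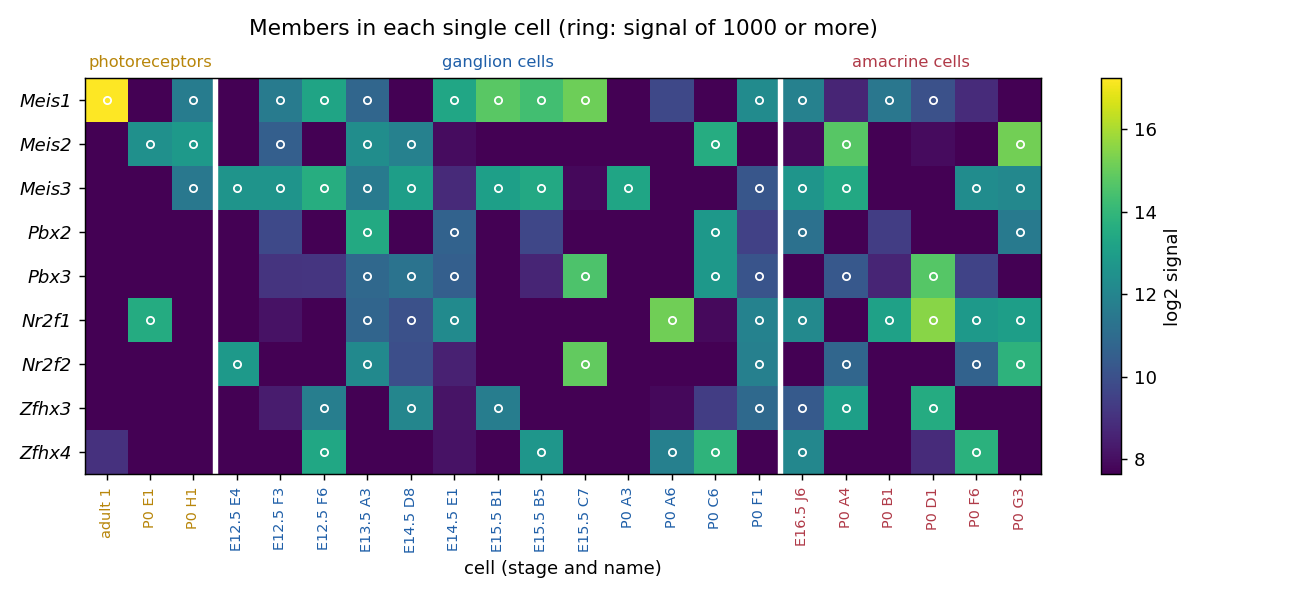
Log2 signal of the 9 members (rows) in each of the 22 cells (columns), with photoreceptors, ganglion cells and amacrine cells from left to right. Colour gives the log2 signal from the floor of 7.64 upward and a ring marks a signal of 1000 or more; Meis1 and Meis3 fill most of the ganglion columns, and the Pbx, Nr2f2 and Zfhx rows carry no ring in the photoreceptors.

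Meis1, a Pbx partner of progenitors and neurons, had its highest signal in the adult rod. Its log2 signal was 17.23 in the adult rod, 11.67 in P0 photoreceptor H1 and 7.64 in P0 photoreceptor E1. In the 13 ganglion cells it ran from 7.64 over a median of 11.64 to 15.14, and in the 6 amacrine cells from 7.64 over a median of 9.43 to 11.86. It was detected in 2 of 3 photoreceptors, 8 of 13 ganglion cells and 3 of 6 amacrine cells, and the 3 types overlapped. The median signal of the adult rod's array was 192.1, against 197.7 for amacrine cell J6 and at most 79.1 for any other cell. The part of this higher median in the Meis1 level was not tested.

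Marker transcripts of other cell types were also present in all 3 photoreceptors. The adult rod, highest in Meis1, held 2 of 8 glial markers, Clu (17.91) and Aldoc (16.97), at a summed signal of 376588.4, against 27153.8 in H1 and 710.7 in E1. It also held 2 of 10 lens and pigment markers, Mitf (17.39) and Ttr (10.36), at a summed signal of 175558, against 6021.2 in H1 and 15471.3 in E1. The glial genes Rlbp1 and Slc1a3 and the pigment genes Tyr and Rpe65 were at the floor in it. The adult rod further held 5 of 13 amacrine markers, among them Gad1 (13.14), 2 of 11 ganglion cell markers and 2 of 6 horizontal cell markers. Of 6 bipolar cell, 9 progenitor and 10 blood and vascular markers it held 1 each. P0 photoreceptor H1, the one P0 photoreceptor with Meis1 and Meis3, held 3 of 8 glial markers (Glul, Rlbp1 and Clu) and 4 of 9 progenitor markers (Sox2, Ccnd1, Sfrp2 and Pcna), whereas E1 held 0 of either list. The summed signal of the progenitor markers was 67593.4 in H1 and 733.9 in E1. Slc1a3, Apoe, Gfap, Aqp4, Aldoc, Hes1, Hes5 and Mki67 were at the floor in H1. H1 also held 1 of 10 lens and pigment markers, Pmel (12.35), 1 of 11 ganglion cell markers, Gap43 (12.22), and 3 of 13 amacrine markers. P0 photoreceptor E1, the one photoreceptor with Nr2f1, held 1 of 10 lens and pigment markers, Dct (13.82), with Tyr, Pmel, Rpe65 and Ttr at the floor. E1 also held 1 of 11 ganglion cell markers, Sncg (12.54), 1 of 6 bipolar cell markers, Cabp5 (13.14), and 2 of 13 amacrine markers, among them Gad1 (13.92). The part of these transcripts in the Meis1, Meis2, Meis3 and Nr2f1 levels was not tested.

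Meis2, a paralog of Meis1 that is also used as a marker of a subset of amacrine cells, was high in few cells. It was at 7.64 in the adult rod and at 12.81 and 12.46 in P0 photoreceptors H1 and E1, so both newborn photoreceptors held it. Ganglion cells ran from 7.64 over a median of 7.64 to 13.58, and amacrine cells from 7.64 over a median of 7.89 to 15.20. The highest cells of the series were amacrine cells G3 (15.20) and A4 (14.73) of P0. Detection was reached in 2 of 3 photoreceptors, 4 of 13 ganglion cells and 2 of 6 amacrine cells.

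Meis3, the third paralog, was at 7.64 in the adult rod, 11.49 in P0 photoreceptor H1 and 7.64 in P0 photoreceptor E1. Ganglion cells had a lowest value of 7.64, a median of 12.60 and a highest value of 13.60, and amacrine cells 7.64, 12.21 and 13.41. It was detected in 1 of 3 photoreceptors, 9 of 13 ganglion cells and 4 of 6 amacrine cells. All but ganglion cells A3 of E13.5 (11.59) and F1 of P0 (10.21) among the ganglion and amacrine cells that held it lay above 12.

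Pbx2 and Pbx3, the DNA-binding partners of Meis factors, were detected in no photoreceptor by any probe set. The probe sets used were at the floor in all 3 cells, while Pbx2 1418893_at reached 9.62 and Pbx3 1421193_a_at 9.73 in the adult rod, just below the detection signal. Pbx2 ran from 7.64 over a median of 7.64 to 13.47 in ganglion cells and from 7.64 over a median of 8.51 to 11.59 in amacrine cells. It was detected in 3 ganglion cells (A3 of E13.5, E1 of E14.5 and C6 of P0) and 2 amacrine cells (J6 and G3). Pbx3 ran from 7.64 over 9.13 to 14.56 in ganglion cells and from 7.64 over 9.10 to 14.71 in amacrine cells, with detection in 6 of 13 and 2 of 6.

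The nuclear receptor Nr2f1 was the member most often detected in amacrine cells. It was at 7.64 in the adult rod and P0 photoreceptor H1, and at 13.54 in P0 photoreceptor E1. Ganglion cells ran from 7.64 over a median of 7.88 to 15.15, with 5 of 13 detected. The amacrine cells had log2 signals of 12.15 in J6 of E16.5 and of 7.64 in A4, 15.53 in D1, 12.80 in F6, 13.01 in G3 and 13.14 in B1 of P0, so 5 of 6 lay above 12 and only A4 was at the floor. Nr2f2, its paralog, was at the floor in all 3 photoreceptors in the probe set used, whereas 1416159_at reached 9.16 in the adult rod. It ran from 7.64 over 7.64 to 14.93 in ganglion cells (4 of 13 detected) and from 7.64 over 9.14 to 13.84 in amacrine cells (3 of 6 detected).

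Zfhx3 was at the floor in all 3 photoreceptors in the probe set used, with 1420649_at at 9.31 in the adult rod. It ran from 7.64 over 8.15 to 12.04 in ganglion cells and from 7.64 over 9.01 to 13.54 in amacrine cells, with 4 of 13 and 3 of 6 detected. Zfhx4 was at 9.01 in the adult rod and at the floor in both P0 photoreceptors. It ran from 7.64 over 7.64 to 13.88 in ganglion cells and from 7.64 over 8.23 to 13.78 in amacrine cells, with 4 of 13 and 2 of 6 detected. For both genes the highest ganglion and amacrine cells lay within 2 of each other on the log2 scale.

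**Figure D2:**
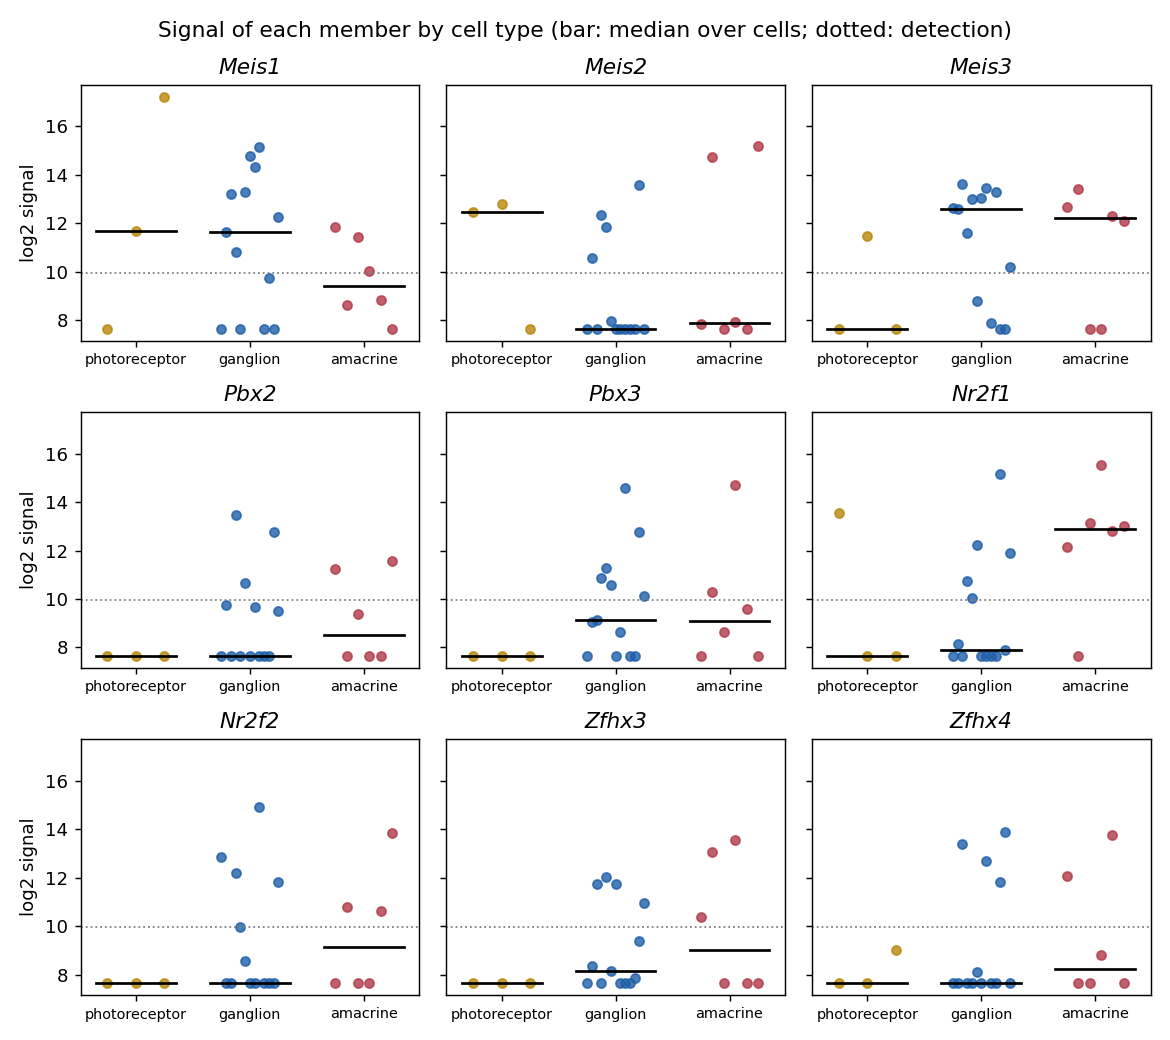
Log2 signal (vertical axis) of each member in single cells of the 3 types, photoreceptors, ganglion cells and amacrine cells from left to right. The bar is the median of the cells and the dotted line the detection signal (9.97), and the floor is 7.64. Nr2f1 has a median of 7.64 in photoreceptors, 7.88 in ganglion cells and 12.90 in amacrine cells, and the points of the 3 types overlap for every member.

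In the comparison of photoreceptors with the other neurons, Meis1 averaged higher and Meis3, both Pbx genes, both COUP-TF genes and both Zfhx genes averaged lower in photoreceptors in the probe sets used, but no member passed the test. Of all 7183 genes tested, 153 passed in limma at an adjusted p of 0.05, or 2.13%, against 0 of 9 members. Without adjustment 1 of 9 members (Meis3) and 875 of the 7183 genes had a p under 0.05. The members' median difference was -1.82, against -0.57 over all genes tested, with 7 of 9 members and 4735 of 7183 genes below 0.

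Meis3 had the largest difference of this comparison among the members. Its sample values were 7.64 for the adult rod and 9.57 for P0 photoreceptors, and lay at 9.69 or above in every ganglion and amacrine sample, so the samples did not overlap. The difference, taken against the average of the ganglion mean and the amacrine mean, was -2.87 ± 1.45 (SE; 95% interval -5.71 to -0.04; adjusted p = 0.399 in limma). Pbx2 was the other member whose samples did not overlap, with both photoreceptor samples at 7.64 and the lowest ganglion sample, of E15.5, at 8.32 (-2.22 ± 1.30, adjusted p = 0.496). These 2 of 9 members compare with 10.1% of all genes whose sample means did not overlap. Without the adult rod the Meis3 difference was -1.91, and without amacrine cell J6 the Pbx2 difference was -1.61. A second Pbx2 probe set, 1418893_at, stood at -0.76 ± 1.28.

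Meis1 went the other way, with means over samples of 13.44 in photoreceptors, 11.24 in ganglion cells and 10.59 in amacrine cells. Its difference of 2.53 ± 1.44 (adjusted p = 0.482) rested on the adult rod: without that cell it was -1.26. With all cells it was 0.77 under quantile normalization and 0.66 with the mean over probe sets. Meis2, at 0.76 ± 1.35 with all cells (adjusted p = 0.815), was at 3.25 without the adult rod. Without amacrine cell J6, Meis1 was at 3.17 and Meis2 at 0.063. Both P0 photoreceptors and not the adult rod held Meis2 in the probe set used. The remaining members had differences between -1.92 and -1.44, with adjusted p-values of 0.516 for Zfhx3, 0.567 for Pbx3, 0.575 for Nr2f2, 0.597 for Nr2f1 and 0.636 for Zfhx4. Nr2f1, at -1.82, was at -0.35 without the adult rod. Zfhx4, at -1.44, was at -2.12 without the adult rod and at -0.69 without amacrine cell J6. The sign of Pbx3 depended on the probe set, with -1.83 for the one used and 0.28 ± 0.88 for 1421193_a_at. Since a value at the floor has no lower bound, differences against a group at the floor depend on where the floor lies, and a p that misses the threshold does not show equal levels.

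The comparison of ganglion with amacrine cells addresses how these neurons differ, the subject in the title of the series. Nr2f1, lower in ganglion cells, had the largest difference of the members in size, and no member passed. Of the 7183 genes, 5 passed (0.0696%), and of the members 0 of 9. At an unadjusted p of 0.05 these counts were 283 genes and 0 of 9 members. The members' median difference was -0.26 with 4 above and 5 below 0, against -0.06 over all genes tested.

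Nr2f1 averaged 7.81 in ganglion cells of E12.5, 10.76 in the cell of E13.5, 11.12 at E14.5, 7.64 at E15.5 and 10.64 at P0, and 12.15 and 12.43 in the amacrine samples of E16.5 and P0. Every ganglion sample lay below both amacrine samples. The difference was -2.69 ± 1.43 (95% interval -5.50 to 0.11; unadjusted p = 0.0599 and adjusted p = 0.999 in limma), and it was -2.83 without amacrine cell J6. Nr2f1 was the 1 member of 9 whose samples did not overlap, where 8.52% of all genes had such samples. Single cells did overlap, since ganglion cell A6 of P0 reached 15.15 and amacrine cell A4 of P0 lay at the floor.

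The intervals of the other 8 members also reached both sides of 0, each with an adjusted p of 0.999. Pbx3 stood at 1.14 ± 1.30, Nr2f2 at 1.04 ± 1.28, Meis1 at 0.65 ± 1.46 and Meis2 at 0.29 ± 1.37. Below 0 were Pbx2 at -0.26 ± 1.32, Meis3 at -0.32 ± 1.47, Zfhx3 at -1.15 ± 1.19 and Zfhx4 at -1.66 ± 1.27. Without amacrine cell J6, Meis3 (0.69), Pbx2 (0.96), Meis2 (-1.10), Pbx3 (-0.12) and Nr2f2 (-0.20) took the other sign. Zfhx4 was at -0.18 and Meis1 at 1.93 without that cell, so that among these 8 members Zfhx3 (-0.91) moved least in proportion. The Nr2f2 interval, from -1.47 to 3.54, shows how wide these bounds are.

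**Figure D3:**
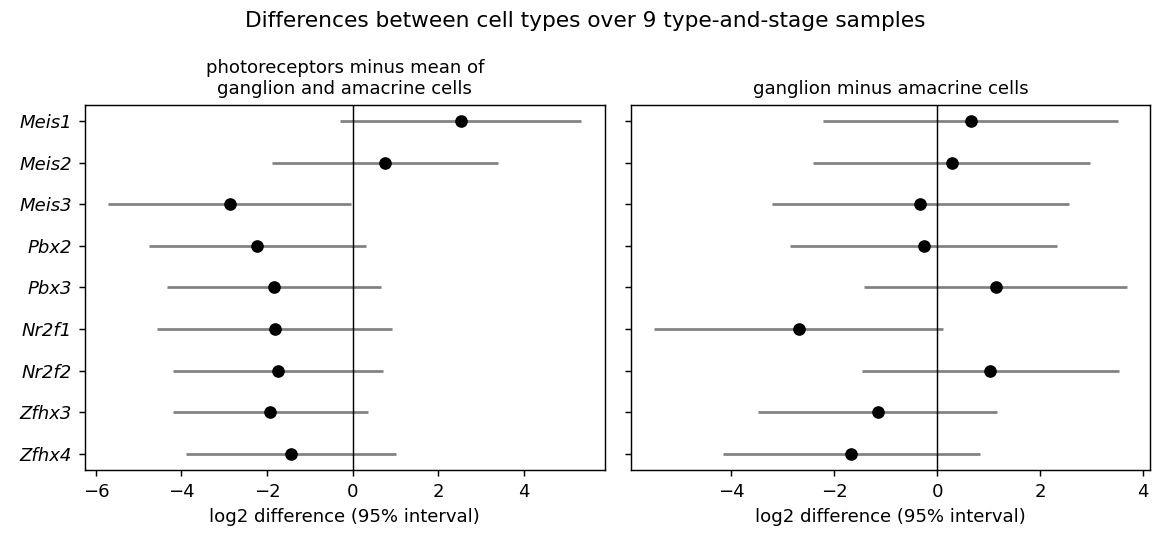
Log2 difference (horizontal axis, 0 marked) of each member with its 95% interval from the limma fit, photoreceptors minus the mean of ganglion and amacrine cells at left and ganglion minus amacrine cells at right. The interval of Meis3 at left ends at -0.04 and is the only one in the plot that leaves out 0, and that of Nr2f1 at right ends at 0.11.

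P0 was the one stage with both ganglion and amacrine cells, 4 and 5 cells. These are 1 sample each, so no test applies. Zfhx4 (1 of 9 members) averaged more than 1 higher on the log2 scale in P0 ganglion cells, where 28.5% of all genes did. Nr2f1, Meis2 and Nr2f2 (3 of 9) averaged more than 1 lower, where 16.7% of all genes did. The median difference was -0.93 over the members and 0.23 over all genes tested.

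Nr2f1 had log2 signals of 7.64 in A3, 7.88 in C6, 15.15 in A6 and 11.90 in F1 among P0 ganglion cells, with a mean of 10.64, against a mean of 12.43 in P0 amacrine cells (difference -1.78). In Meis2, ganglion cell C6 (13.58) and amacrine cells G3 and A4 stood above cells that all lay at 7.93 or below, with means of 9.13 in ganglion and 10.63 in amacrine cells (-1.50). Nr2f2 was above the floor in 1 of 4 ganglion cells, F1 at 11.81, and in 3 of 5 amacrine cells, A4 at 10.79, F6 at 10.64 and G3 at 13.84 (means 8.68 and 10.11, -1.43). These genes thus differed by a few cells of each type, and the cells overlapped. Zfhx4 was at 13.88 in ganglion cell C6 and 11.83 in A6 and at the floor in A3 and F1, with a mean of 10.25. In amacrine cells it was at 13.78 in F6 and at 8.82 or below in the other 4, with a mean of 9.11 (1.14).

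The remaining members were within 1 of each other at P0. Meis1 averaged 9.32 in both types (0.01), and it was detected in 1 of 4 ganglion cells and 2 of 5 amacrine cells. Meis3 averaged 9.69 in ganglion and 10.63 in amacrine cells (-0.93), Zfhx3 8.96 and 9.90 (-0.94), Pbx3 9.54 and 10.17 (-0.63), and Pbx2 9.39 and 8.78 (0.61). Their ganglion and amacrine cells overlapped for each gene.

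Across ganglion cell stages, Meis1 and Meis3 were the members most often present, and Meis1 was highest at E15.5. Meis1 was detected in 2 of 3 cells at E12.5, the 1 cell of E13.5, 1 of 2 at E14.5, 3 of 3 at E15.5 and 1 of 4 at P0. The E15.5 cells had log2 signals of 14.79 in B1, 14.33 in B5 and 15.14 in C7 (mean 14.75 ± 0.40, SD, n = 3 cells), each above the highest ganglion cell of any other stage (13.31, in E1 of E14.5). P0 cells had 7.64, 7.64, 9.73 and 12.28. With 1 sample per stage this order was not tested. Genes detected numbered 2475 in B1, 2465 in B5 and 1517 in C7, in a range of 1517 to 4351 over the ganglion cells. P0 cell A6, with Meis1 at 9.73, had 2292. The part of the number of detected genes in the Meis1 levels was not tested.

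Meis3 was detected in 3 of 3 cells at E12.5, with 12.63 in E4, 12.60 in F3 and 13.60 in F6 (mean 12.94 ± 0.57, SD, n = 3 cells). It was at 11.59 in the cell of E13.5, at 13.02 and 8.78 in the cells of E14.5, at 13.05, 13.44 and 7.87 in those of E15.5, and at 13.28, 7.64, 7.64 and 10.21 at P0. Detection thus held in 2 of 4 P0 cells, against 7 of 9 embryonic cells. Within every stage after E12.5 that had over 1 cell, at least 1 cell was below the detection signal.

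Nr2f1 was detected in 0 of 3 ganglion cells at E12.5 (highest 8.13), in the cell of E13.5 (10.76), in both cells of E14.5 (10.02 and 12.22), in 0 of 3 at E15.5 (all 7.64) and in 2 of 4 at P0 (15.15 and 11.90). Pbx3 was likewise detected in the E13.5 cell (10.87) and both E14.5 cells (11.29 and 10.56), in 0 of 3 at E12.5, in 1 of 3 at E15.5 (14.56, in C7) and in 2 of 4 at P0 (12.76 and 10.12). The 3 cells of E13.5 and E14.5 also held 2 to 3 of 10 lens and pigment cell markers, at summed signals of 8653.9 to 101655, against 0 of 10 and 293.3 to 1172.7 in the other 10 ganglion cells. Tyr, Pmel, Dct, Rpe65 and Ttr were at the floor in those 3 cells. The 5 cells of E14.5 and E15.5 held 2 to 3 of 10 blood and vascular markers, at summed signals of 18605.8 to 150909.7, against 0 of 10 and 399.0 to 1190.7 in the other 8, with Hba-a1, Ptprc, Cx3cr1, Pecam1, Cdh5 and Pdgfrb at the floor. The cells of E14.5 held 4 and 7 of 9 progenitor markers, at summed signals of 30733.1 to 92323.3, against 0 to 3 and 214.7 to 36005.5 in the other 11 ganglion cells, with Hes5 at the floor. The part of these transcripts in the levels of Nr2f1, Pbx3 and Meis1 was not tested.

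Meis2 was in 1 of 3 ganglion cells at E12.5 (10.55), the cell of E13.5 (12.33), 1 of 2 at E14.5 (11.85), 0 of 3 at E15.5 and 1 of 4 at P0 (13.58). Nr2f2 reached 12.84 in E4 of E12.5, 12.19 in the E13.5 cell, 14.93 in C7 of E15.5 and 11.81 in F1 of P0. Pbx2, Zfhx3 and Zfhx4 were in at most 1 cell at each stage, except Zfhx4 in 2 of 4 at P0. The mean lay above the floor at all 5 stages for Meis1, Meis3, Pbx2, Pbx3 and Nr2f2, or 5 of the 9 members. This is less than detection at each stage. Pbx2 was detected in 0 of 3 cells at E12.5 and at E15.5, Pbx3 in 0 of 3 at E12.5 and Nr2f2 in 0 of 2 at E14.5. The share of all genes with such means was not computed.

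**Figure D4:**
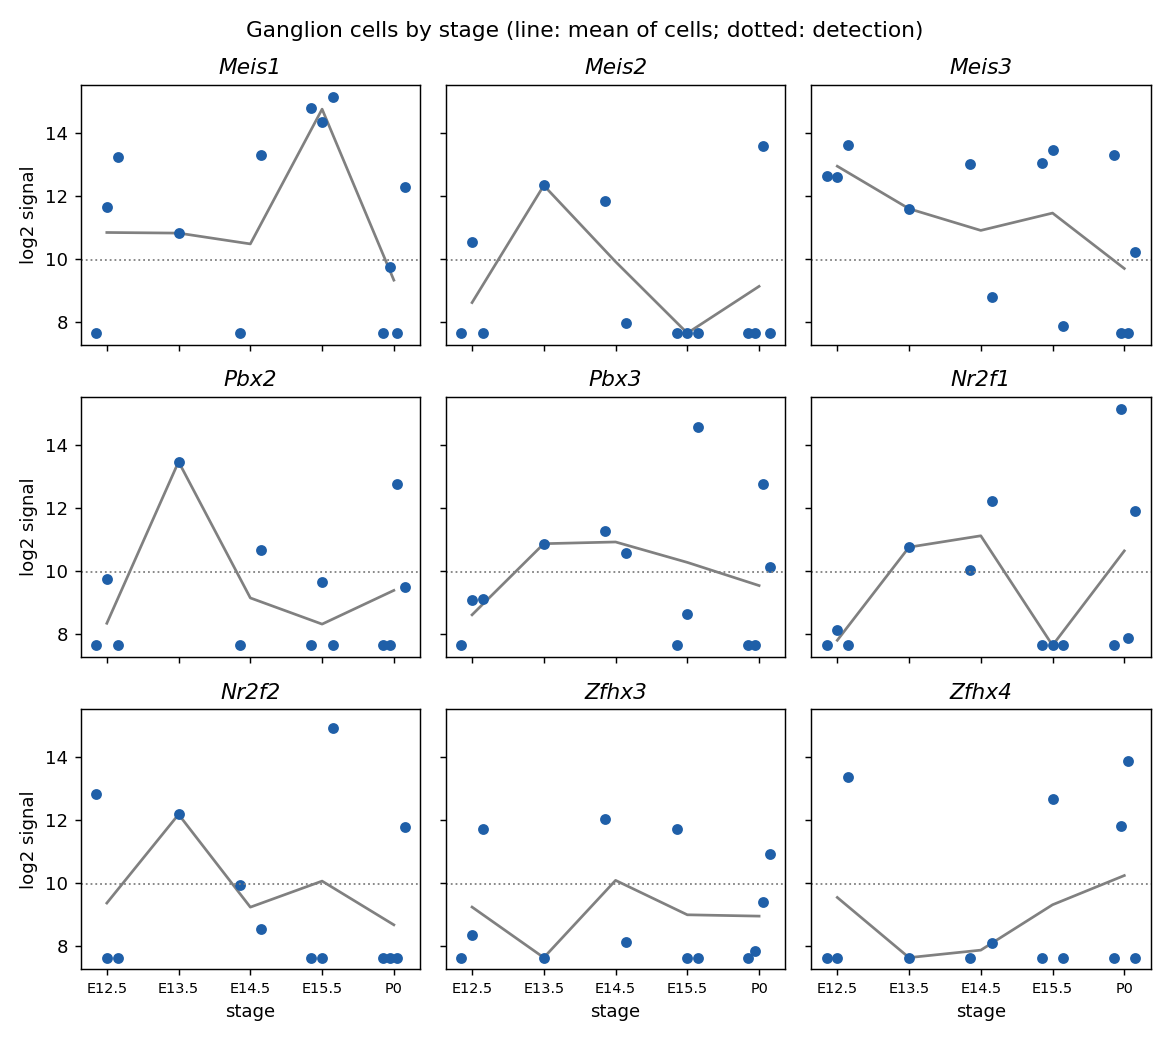
Log2 signal (vertical axis) of the members in single ganglion cells by stage, E12.5 to P0 from left to right. The grey line joins the means of the stages, the dotted line is the detection signal (9.97), and the floor is 7.64. The 3 cells of E15.5 lie between 14.33 and 15.14 for Meis1 and at the floor for Nr2f1.

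Which members a single cell held differed from cell to cell. The 22 cells held 21 different combinations of the 9 members. Since 9 genes can form many more combinations than there are cells, and no other set of genes was counted, this number does not set the members apart. A single combination, Meis1 with Meis2 and Meis3, was found in more than 1 cell, in P0 photoreceptor H1 and in ganglion cell F3 of E12.5. Cells held 1 to 7 members with a median of 3.5 (mean 3.59 ± 1.62, SD, n = 22 cells). Photoreceptors held a median of 2 (range 1 to 3), ganglion cells 3 (1 to 7) and amacrine cells 4.5 (2 to 6).

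At the low end, the adult rod held Meis1 alone and ganglion cell A3 of P0 held Meis3 alone. At the high end, ganglion cell A3 of E13.5 held 7 members, all 3 Meis genes with Pbx2, Pbx3, Nr2f1 and Nr2f2, and lacked both Zfhx genes. Ganglion cell F1 of P0 held 6 (Meis1, Meis3, Pbx3, Nr2f1, Nr2f2 and Zfhx3), as did amacrine cell J6 (Meis1, Meis3, Pbx2, Nr2f1, Zfhx3 and Zfhx4). The number of members went with the number of genes detected at Pearson's r = 0.36 and Spearman's rho = 0.36 over the 22 cells, which share array and amplification protocol, and at r = 0.26 over 20 cells without the 2 farthest from the median. The part of the number of detected genes in the number of members was not tested.

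Among ganglion cells, the 3 of E12.5 held Meis3 with Nr2f2 (E4), all 3 Meis genes (F3) and Meis1 and Meis3 with both Zfhx genes (F6). At E14.5, D8 held Meis2, Meis3, Pbx3, Nr2f1 and Zfhx3, and E1 held Meis1, Pbx2, Pbx3 and Nr2f1. At E15.5, B1 and B5 shared Meis1 and Meis3 but paired them with Zfhx3 in B1 and Zfhx4 in B5, while C7 held Meis1, Pbx3 and Nr2f2. At P0, C6 held Meis2, Pbx2, Pbx3 and Zfhx4, and A6 held Nr2f1 and Zfhx4.

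Among amacrine cells of P0, A4 held Meis2, Meis3, Pbx3, Nr2f2 and Zfhx3, and D1 held Meis1, Pbx3, Nr2f1 and Zfhx3. F6 held Meis3, Nr2f1, Nr2f2 and Zfhx4, G3 held Meis2, Meis3, Pbx2, Nr2f1 and Nr2f2, and B1 held Meis1 and Nr2f1. Every amacrine cell thus held a Meis gene and a COUP-TF gene. P0 photoreceptor E1 held Meis2 and Nr2f1.

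By family, at least 1 Meis gene was detected in 21 of 22 cells, and all 3 in 3 cells. The exception was ganglion cell A6 of P0, in which Meis1 was at 9.73, just below the detection signal. In the probe sets used, a Pbx gene was detected in 0 of 3 photoreceptors, 6 of 13 ganglion cells and 4 of 6 amacrine cells. These 10 cells also held a Meis gene, but so did nearly all cells, so this count does not bear on the pairing of Meis and Pbx. A COUP-TF gene was found in 1 of 3 photoreceptors, 7 of 13 ganglion cells and 6 of 6 amacrine cells, and a Zfhx gene in 0 of 3, 7 of 13 and 4 of 6. All 4 families were present in 0 of 3 photoreceptors, 2 of 13 ganglion cells and 3 of 6 amacrine cells. These counts were not tested.

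Each of the 36 pairs of members, paralogs or not, was found apart in more cells than together, and paralog pairs ranged from 2 to 8 shared cells. Genes detected in few cells are mostly found apart, and no share over other gene pairs was computed. The count thus does not show that the members keep apart. Meis1 and Meis2 shared 3 cells, with Meis1 alone in 10, Meis2 alone in 5 and neither in 4 (r = -0.51 over 22 cells). Meis1 and Meis3 shared 8 cells (r = -0.13), and Meis2 and Meis3 shared 6 (r = 0.10). The Pbx pair shared 3 cells (r = 0.13), the COUP-TF pair 4 (r = -0.03) and the Zfhx pair 2 (r = 0.02). Between families, Meis3 and Nr2f1 shared 6 cells (r = -0.46) and Pbx3 and Zfhx3 shared 4 (r = 0.38). Correlations between sparse single-cell signals are given only to describe these cells.

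**Figure D5:**
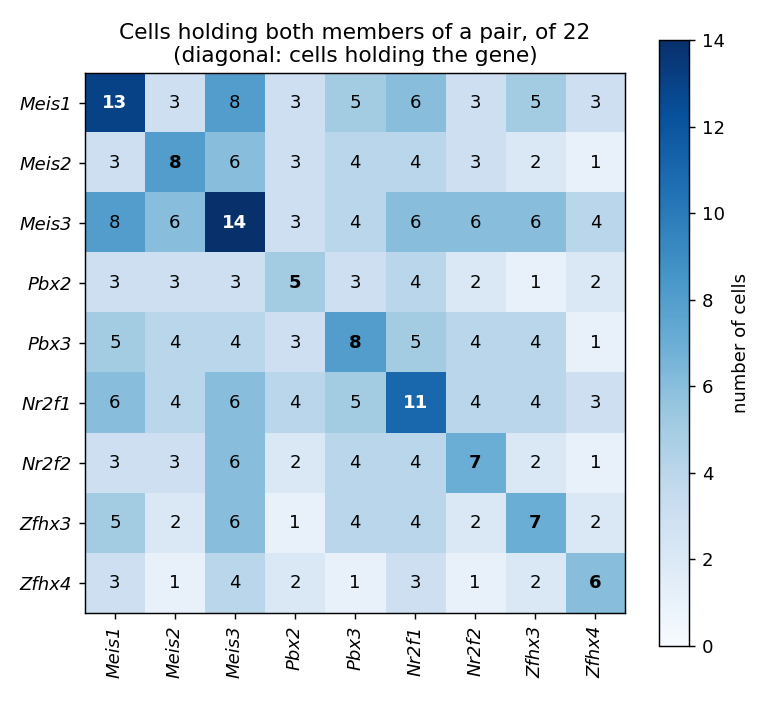
Number of the 22 cells in which each pair of members was detected together, with the number of cells holding each member on the diagonal. Meis1 and Meis3 share 8 cells, the highest count of any pair, whereas Meis1 and Meis2 share 3.

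The start-site windows of Meis1 and Meis2, the paralogs that shared 3 cells, are shown for their letters. Both come from RefSeq on GRCm38.p6 and reach from 250 bases before to 50 after the start of the gene, with the letters CG in capitals. The Meis1 window is chr11:19018920-19019219 and the Meis2 window chr2:116064570-116064869, both on the minus strand.
Meis1: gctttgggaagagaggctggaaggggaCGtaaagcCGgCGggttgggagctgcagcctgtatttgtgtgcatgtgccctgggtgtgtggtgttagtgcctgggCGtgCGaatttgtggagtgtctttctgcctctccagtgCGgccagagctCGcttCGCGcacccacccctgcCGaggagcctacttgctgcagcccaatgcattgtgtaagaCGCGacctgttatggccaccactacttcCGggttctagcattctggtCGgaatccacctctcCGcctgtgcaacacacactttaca
Meis2: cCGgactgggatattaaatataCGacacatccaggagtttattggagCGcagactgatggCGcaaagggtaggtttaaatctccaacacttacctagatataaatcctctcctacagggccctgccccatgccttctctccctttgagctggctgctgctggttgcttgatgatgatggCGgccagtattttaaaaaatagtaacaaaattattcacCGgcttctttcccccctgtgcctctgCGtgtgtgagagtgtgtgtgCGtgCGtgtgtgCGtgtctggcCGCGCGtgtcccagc
They hold 15 and 13 CG pairs, against a median of 7 over 32851 mouse windows of that length. Of all windows, 65.4% held fewer than the Meis1 window and 62.1% fewer than the Meis2 window, so neither is unusual. Windows were found for 7 of the 9 members, 8 windows in all. The letters TGACAG, the core of a Meis site, stood in 0 of these 8 windows on either strand and in 19.2% of all windows, and AGGTCA, the core of a COUP-TF site, in 0 of 8 and 16.3%. These are descriptions of the letters in a short window, and no binding was measured.

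Most genes were represented by several probe sets, and these did not all report. For Meis1, 1450992_a_at was detected in 13 cells and its other 2 probe sets in 0. The 4 Meis2 probe sets were detected in 8 (1447861_x_at, the one used), 8, 6 and 1 cells, all among the same 8 cells. The suffix _x_at marks probes that may bind other transcripts. Nr2f2 had 6 probe sets, of which 1416158_at was detected in 7 cells and the others in at most 1. For Zfhx3, 1460006_at was detected in 6 cells, of which 3 were shared with the 7 of the one used. For Pbx2, 1418893_at was detected in 4 cells, of which 2 were not among the 5 of the one used. Pbx2 1449261_at was detected in 6 cells, of which 1 was not among those 5. The combinations and family counts take only the probe set used. Pbx3's second probe set, 1421193_a_at, was detected in 3 of the 8 cells and lay at -0.05 ± 0.90 between ganglion and amacrine cells, against 1.14 for the one used. Meis3 and Nr2f1 had 1 probe set each.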

How the data were processed

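Signal intensity was computed by the authors with MAS5, per the submitters' processing notes, and is on a linear scale. Scanner settings were not used here. The 2% trimmed mean was 500 on 21 arrays; that of P0 amacrine cell B1 was 18.1 and it was multiplied by 27.6. Of 45101 probe sets, 34958 carried 1 gene symbol, 932 several and 9211 none. Signals were floored at 200 and log2 transformed, and genes reaching 1000 in at least 3 of 22 cells were tested. Probe annotation was GEO's, matched by gene number to RefSeq for 34754 probe sets.

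Cells of a type and stage were averaged into 9 samples (2 photoreceptor, 5 ganglion, 2 amacrine), and 1 mean for each type was estimated in limma 3.58.1, run under R 4.3.3 (eBayes with a trend over level; 6 degrees of freedom remained, and those of the prior were infinite, so the spread came from the trend), with Benjamini-Hochberg adjustment over 7183 genes. Stage was not fitted because P0 alone held all 3 types, and type and stage cannot be told apart for the other samples. The number of arrays limits the precision.

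The members and gene lists were chosen with earlier results of these data known. All 9 members are named; of the lists of relatives, partners and retinal patterning genes, up to 4 tested genes with the largest ganglion minus amacrine difference; and for each member the 3 genes of highest correlation. Alternatives changed the floor, the detection filter, the normalization, the probe set rule, the averaging over cells, the variance model and the cells included.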

Additional observations from a re-analysis of the deposited data

Results flagged for a closer look

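Of 18 groups of 4 to 10 cells examined, 3 held a cell far from the others of its type and stage. Chance gives about 1 in 20 for values that vary freely. That rate does not apply where the other cells share the floor, as for Meis2 and Nr2f2 here, or where most of them do, as for Zfhx4. Meis2 was at 13.58 in ganglion cell C6 of P0, with the other 3 P0 ganglion cells at 7.64. Nr2f2 was at 11.81 in ganglion cell F1 of P0, with the other 3 at 7.64. Zfhx4 was at 13.78 in amacrine cell F6 of P0, where the next of the other 4 cells was at 8.82 and the rest at 7.64.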

How the results depend on the processing

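No member passed in either contrast under any of the 35 alternatives, in which all 9 members were tested except with the mean over probe sets (7 tested). Genes called between ganglion and amacrine cells numbered 5, and 1 with a floor of 400, 31 with no filter, 10 with quantile normalization, 1 with the mean over probe sets, 1 with every probe set tested, 0 with the median over cells (263 at an unadjusted p of 0.05), 8 with gene-wise variances, 21 with the 22 cells and a random block, 2 without the adult rod and the E16.5 amacrine cell, 1 without E14.5, and 1 to 9 when 1 cell was left out. For photoreceptors the count was 153, and 56 with no filter, 44 with the mean over probe sets, 233 with every probe set, 47 with the median over cells, 51 with gene-wise variances, 27 without the 2 cells, 101 without E14.5, and 44 to 161 when 1 cell was left out (44 without J6, 67 without the adult rod). Members past 1 at P0 numbered 4, and 2 with the mean over probe sets and 2 to 6 when 1 cell was left out; members above the floor at all 5 ganglion stages 5, and 3 with the median over cells and 3 to 5. Signs turned between ganglion and amacrine cells with the mean over probe sets (Meis1 -0.12, Meis2 -0.057), the median over cells (Nr2f2 -0.27), the random block (Meis2 -1.12, Meis3 0.21, Nr2f2 -0.17) and without the 2 cells (Meis2 -1.10, Meis3 0.69, Pbx2 0.96, Pbx3 -0.12, Nr2f2 -0.20; for photoreceptors Meis1 -0.62). With 1 cell left out, ranges that crossed 0 were -1.10 to 0.86 for Meis2, -0.75 to 0.69 for Meis3, -1.20 to 0.96 for Pbx2, -0.12 to 1.71 for Pbx3, -0.20 to 1.50 for Nr2f2, -1.26 to 3.53 for Meis1 in photoreceptors and, at P0, -0.068 to 2.31 for Zfhx4, -0.98 to 0.57 for Meis1, -0.52 to 1.31 for Pbx2 and -1.70 to 0.51 for Pbx3. At P0, Zfhx3 was at 0.99 with the median over cells, and Meis1 took a negative sign there and with 2 other settings. The cause of these moves was not tested. Nr2f1 stayed below 0 between ganglion and amacrine cells in all 34 refits (-3.29 to -2.30, adjusted p 0.459 to 1). Quantile normalization moved the median of all genes from -0.06 to 0.04 in that contrast and from 0.23 to 0.04 at P0. Members per cell had a median of 3.5, and 4 at a detection signal of 500, 3 at 2000, 4 over any probe set and 3 with quantile normalization. Leaving out the adult rod or J6 leaves 1 sample of that type, assumed to vary like the others. No paired analysis was possible because the replicate numbers only name cells.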

Other observations

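Other genes of the same families, their partners and retinal patterning genes were read in the same fit. Of 15 relatives of the same protein families, 12 were measured and 7 tested, and 0 passed in either contrast in limma (0 at an unadjusted p of 0.05). Zfhx2, another gene of the Zfhx family, was at -1.22 ± 1.02 in ganglion minus amacrine cells, Adnp2, another zinc finger and homeodomain protein, at -1.18 ± 0.98, and the nuclear receptors Nr2c1 and Nr2f6 at 1.00 ± 0.74 and 0.92 ± 1.00. Nr2c1 was detected in 3 ganglion cells and no amacrine cell. Of 12 binding partners, 10 were measured and 6 tested, with 0 passing in either contrast (0 and 1 unadjusted). Bcl11b, also called CTIP2, which binds COUP-TF proteins, was detected in 4 of 13 ganglion cells and 0 of 6 amacrine cells and averaged 10.68 in P0 ganglion and 7.64 in P0 amacrine cells, but its difference over all samples was 1.05 ± 0.85. Rxrg, a retinoid receptor subunit, had means of 10.97 and 7.84 at P0 and an overall difference of 0.75 ± 0.89, the deacetylase Hdac1 0.88 ± 1.29 and Pias3 -0.18 ± 1.34. Of 17 retinal patterning genes, 15 were measured and 6 tested, with 0 passing (0 and 1 unadjusted): Efna5, an ephrin of retinal maps, stood at -0.82 ± 0.73, Ephb3, a receptor of ephrin-B ligands, at 0.67 ± 0.93, Efnb2, such a ligand, at -0.64 ± 0.95 and Tbx2, a factor of the dorsal retina, at 0.62 ± 1.00.

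The genes most like each member over the 22 cells, of 7182 compared, are given as a description. Meis3 had the closest match of all members, with Asns, asparagine synthetase (r = 0.85), followed by Cxxc5 (0.81) and Cyth2 (0.79). Nr2f1 was most like Vps35l (0.81), Rchy1 (0.72) and Tank (0.72), and Pbx2 like Orc2 (0.81), Tent2 (0.78) and Zfp948 (0.75). Zfhx3 was most like Fgf12 (0.79), Smug1 (0.79) and Cbln2 (0.76), Pbx3 like Ints1 (0.79), Aaas (0.74) and Sf3a3 (0.73), and Zfhx4 like Adck1 (0.78), Ttc14 (0.75) and Sdf4 (0.71). Nr2f2 was most like Kmt2d (0.75), Clcn7 (0.75) and Epb41l4a (0.71), Meis2 like Tbc1d7 (0.72), Sik3 (0.72) and Ddx51 (0.71), and Meis1 like Rpl27a (0.70), Snx22 (0.68) and Ctnnb1 (0.68). No member was among another member's 3 closest genes.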
